A study of Rattus norvegicus with 16 samples.

Results

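Plasminogen activators and the proteins that restrain them were followed across 4 groups of rat heart libraries through 4 genes, chosen by name: Plau, Plat, Plaur and Serpine2. All 4 had a row among the 17085 genes measured by bulk RNA sequencing of the infarct zone, and 3 of them passed the filter on low counts. Plaur did not pass. The Sham group is the surgical control, and the MI group had its left anterior descending (LAD) coronary artery tied off to cause an infarct. MI_soft and MI_stiff carried the same ligation plus a gel, soft in one and stiff in the other; a hydrogel is a polymer mesh that holds water, here placed into the muscle wall. Each group held 4 libraries. Strain, age, the time after ligation and the makeup of the gels are details not given in the sources used here. The label for RNA extraction also names MI/R, which often stands for infarction followed by reperfusion, and whether flow was restored is not stated. Nothing in the labels ties the libraries to separate animals, so the p-values measure only the spread between these libraries, which may be technical.

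Plasmin is a protease that dissolves fibrin and degrades or activates several matrix proteins. It is cut from its inactive precursor plasminogen by either of a pair of activators: the urokinase type (uPA, the product of Plau), which acts mostly at the cell surface on its receptor (uPAR, the product of Plaur), and the tissue type (tPA, the product of Plat), which is released by endothelial cells and others and works best on fibrin. Protease nexin-1, the product of Serpine2, is a serpin, an inhibitor that traps its target protease, and it blocks uPA, tPA, plasmin and thrombin. In the infarcted heart this system is known for its part in clearing dead tissue and in scar formation.

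The promoters of 2 members, Plau and Serpine2, are shown for the letters just upstream of the genes whose transcripts are compared. The windows hold the 250 bases before the RefSeq start site in the GRCr8 build, another build than the rn7 of the counts, written 5′ to 3′ on the strand of the gene. Plau lies at chr15:3511988-3512237 on the minus strand and Serpine2 at chr9:88637203-88637452 on the minus strand. Capitals mark each match to the GC box GGGCGG on either strand.
Plau: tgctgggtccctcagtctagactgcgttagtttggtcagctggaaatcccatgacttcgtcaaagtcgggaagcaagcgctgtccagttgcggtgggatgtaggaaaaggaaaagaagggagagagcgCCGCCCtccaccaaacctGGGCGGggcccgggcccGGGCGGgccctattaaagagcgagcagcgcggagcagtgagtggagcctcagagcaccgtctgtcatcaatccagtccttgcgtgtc
Serpine2: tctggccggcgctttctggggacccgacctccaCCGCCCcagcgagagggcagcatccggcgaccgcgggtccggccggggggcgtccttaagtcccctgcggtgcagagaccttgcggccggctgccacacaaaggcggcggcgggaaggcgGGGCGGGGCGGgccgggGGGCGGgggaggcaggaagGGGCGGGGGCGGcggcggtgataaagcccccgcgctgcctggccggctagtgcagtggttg
The Plau window held 3 GC boxes at a GC content of 60%, and the Serpine2 window held 6, some of them overlapping, at 76.8%. The same motif was found in 30.5% of the 33469 rat promoter windows of this length. Neither window held the AP-1 motif TGANTCA, which 6.34% of windows hold, or the ETS core CCGGAA, which 12.6% hold. The Plaur window, at chr1:89181113-89181362 on the plus strand, held 1 AP-1 match that begins 83 bases before the start and no GC box. Of the 4 genes, 3 had an entry; Plat had none. These matches are descriptions of letters and say nothing on which factors bind.

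Library totals lay between 10940685 and 14456186 expected counts. Genes with a count numbered 10470 in MI 2, 10958 in MI 3, 11283 in MI 4 and 11785 in MI_soft 4, and between 12019 and 12820 in the other 12 libraries; 3 of those 4 low libraries are MI. A fit without the 4 leaves MI 1 as the only MI library, whose spread is then assumed to be like that of the other groups, so for MI its p-values speak of that 1 library; its values are given where a called difference was lost or moved by over 1.5 times, or where a call or direction changed. The 8 cardiomyocyte markers were all detected in every library, with a summed level of 29892 to 42964 TPM (a level scaled for gene length) in Sham and 12311 to 26588 in the ligated libraries. Levels below are CPM (counts scaled to a common library size with TMM factors) unless TPM is named. Differences are log2 values with their standard error (SE) from edgeR's quasi-likelihood fit over 11376 genes, adjusted by Benjamini-Hochberg, and a gene was called at an adjusted p under 0.05.

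Against Sham, the tested members were higher wherever they were called. In MI 2 of 3 were called higher, Plat and Serpine2, where 36.6% of all tested genes were called and 20.2% were called higher. In MI_soft 2 of 3 were called higher, Plau and Serpine2, against 26.1% called and 16.4% called higher among all genes. In MI_stiff all 3 tested members were called higher, against 21.2% and 12.7%. Between the ligated groups 1 call was made, Plau higher in MI_stiff than in MI, where 1.19% of all genes were called and 0.492% were called higher. No tested member was called between MI_soft and MI, where 0.0264% of genes passed, or between MI_stiff and MI_soft, where 0.0967% passed. At an unadjusted p under 0.05 those 2 comparisons held 1761 and 1631 genes, and DESeq2 called 1 member in each.

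**Figure D1:**
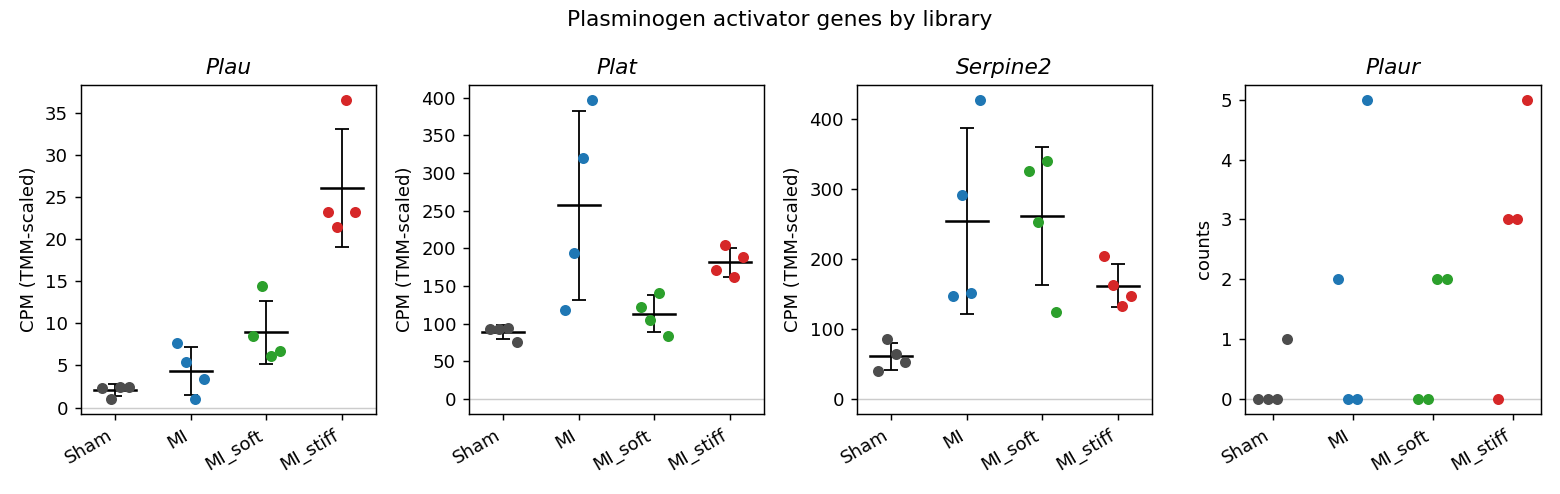
Level of each member in the 16 libraries: CPM with TMM factors for Plau, Plat and Serpine2 and rounded counts for Plaur. Points are libraries, and for the first 3 genes the long bar is the group mean and the whiskers are 1 SD (n = 4). The 4 MI_stiff libraries have Plau between 21.4 and 36.5 CPM, above every other library, while Plat and Serpine2 are highest in MI 4.

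Plau was the member that set MI_stiff apart. Its level was 2.33, 1.04, 2.48 and 2.46 CPM in Sham 1 to 4. In MI it was 7.68, 5.45, 1.03 and 3.37 CPM, in MI_soft 8.44, 14.4, 6.15 and 6.69 CPM, and in MI_stiff 23.2, 21.4, 36.5 and 23.2 CPM. Every MI_stiff library lay above every library of the other 3 groups, and every MI_soft library lay above every Sham library. MI overlapped both Sham and MI_soft: MI 3 lay just below the lowest Sham value and MI 1 lay among the MI_soft libraries. The low values rest on few counts: Sham 2 and MI 3 held 11 each, and MI_stiff 3 held 519.

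The group means of Plau were 2.08 ± 0.695 CPM for Sham, 4.38 ± 2.84 for MI, 8.91 ± 3.77 for MI_soft and 26.1 ± 7.01 for MI_stiff (SD, n = 4 each). In MI_stiff it rose by 3.64 ± 0.50 (SE) over Sham, 12.4-fold, with an adjusted p of 6.18e-05, and in MI_soft by 2.09 ± 0.47, 4.25-fold, with an adjusted p of 0.00363. Groups that do not overlap, with the ligated group higher, were found for 20.9% of genes in MI_soft against Sham and 19.3% in MI_stiff against Sham. The difference between MI and Sham was 1.08 ± 0.47 and was not called (adjusted p = 0.0802). That difference passed when MI 3 was left out (1.39, adjusted p = 0.0114). With MI 1, the MI library highest in Plau, as the only one of its group, it was 1.89 (adjusted p = 0.00469).

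Plau rose in MI_stiff over MI by 2.56 ± 0.47, 5.89-fold with a 95% interval of 2.98 to 11.6, and an adjusted p of 0.0191. By p it ranked 20 of the 11376 genes of that comparison. Non-overlapping groups with MI_stiff higher were seen for 3.97% of genes. The call was lost, with the direction kept, without MI 2 (adjusted p = 0.0533), without MI 4 (0.0767), without MI_stiff 3 (0.0639), with only the 2 groups in the fit (0.0710) and without the 4 libraries with fewest genes, against MI 1 alone (1.76, adjusted p = 0.0780). Against MI_soft, MI_stiff was higher in every library, by 1.55 ± 0.45, or 2.92-fold with an interval of 1.52 to 5.62. The main test did not call it (adjusted p = 0.139), and 4.47% of genes showed such a separation. DESeq2 called it (adjusted p = 0.0262), as did limma-voom with library quality weights (0.00120) and the fit without the 4 libraries (0.0291). The difference of MI_soft from MI, 1.01 ± 0.45, was not called (adjusted p = 0.295). Without the 4 libraries, against MI 1 alone, that difference was 0.32.

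Macrophages are among the cells known to make uPA, and their markers moved with Plau in part. The summed TPM of the 8 macrophage and monocyte markers with a row (of 9 listed) was 67.5 to 101 for Sham, 245 to 1284 for MI, 1374 to 2605 for MI_soft and 470 to 2782 for MI_stiff, and none of the 8 was at 0 in any library. The MI library highest in these markers, MI 1, was also the MI library highest in Plau. MI_stiff 2, at 470 TPM of markers, lay below all 4 MI_soft libraries in the markers and above all of them in Plau, at 21.4 CPM. MI_soft 4, with 2605 TPM of markers, had 6.69 CPM of Plau. Most of that sum was Lyz2, at 1998 TPM. Gpnmb, another marker, named after its values were seen, was 108 TPM in MI_stiff 2 and 99.5 to 204 in MI_soft. It was called higher in MI_stiff than in MI (3.27 ± 0.47, adjusted p = 0.00677), the only 1 of the 8 markers called there. Per 1000 TPM of these markers, a ratio chosen after its parts were seen, the median of Plau was 13.8 TPM for Sham, 5.23 for MI, 3.38 for MI_soft and 8.21 for MI_stiff. Within each of the MI_soft and MI_stiff groups the ratio spanned 1.04 to 4.05 and 5.74 to 25.1, with no overlap between them. The share of all genes that would separate so over these markers was not counted. Markers of epicardium and mesothelium, all 6 with a row, summed to 19.6 to 77.7 TPM in MI_stiff against 9.31 to 29.4 in MI, with up to 3 of the 6 at 0 in a library of MI and up to 1 in MI_stiff; their part in the Plau difference was not tested. In bulk tissue, a change in the number of cells of a type and a change in RNA per cell cannot be told apart.

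**Figure D2:**
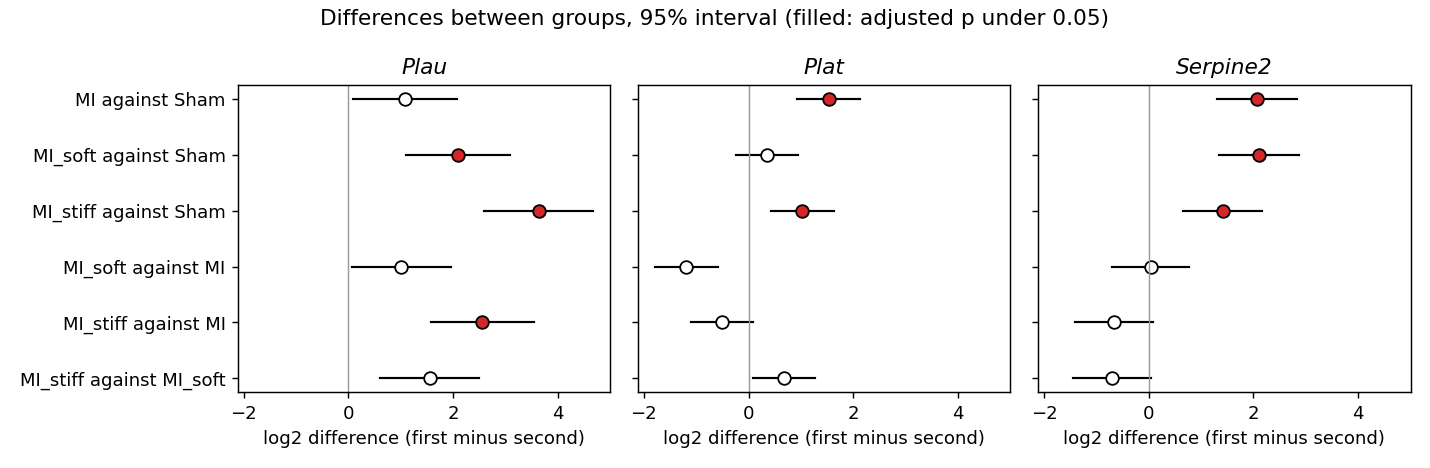
Difference of each tested member in the 6 comparisons, as log2 CPM of the first group minus the second (horizontal axis), with the 95% interval of the edgeR fit. Filled points have an adjusted p under 0.05: 7 of the points are for comparisons with Sham, and the remaining filled point is Plau in MI_stiff against MI at 2.56.

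Plat, the tissue-type activator, was highest in MI and close to Sham in MI_soft. It was 92.9, 92.9, 93.9 and 75.3 CPM for Sham, 118, 193, 319 and 397 for MI, 122, 105, 141 and 83.5 for MI_soft, and 171, 204, 161 and 188 for MI_stiff. The MI libraries spanned more than a 3-fold range, and the lowest of them, MI 1, lay below 2 of the 4 MI_soft libraries. MI_stiff formed a tight group above all of Sham and all of MI_soft. Group means were 88.7 ± 8.98 CPM for Sham, 257 ± 125 for MI, 113 ± 24.6 for MI_soft and 181 ± 18.7 for MI_stiff (SD, n = 4 each).

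Plat rose in MI over Sham by 1.53 ± 0.29 (2.89-fold, adjusted p = 0.000574), with no overlap between the groups, as for 17.7% of genes in that direction. Without the 4 libraries with fewest genes the difference was 0.43 (adjusted p = 0.136), a value of MI 1 alone, the lowest MI library for Plat. Plat rose in MI_stiff over Sham by 1.03 ± 0.28 (2.04-fold, adjusted p = 0.0150), also with no overlap, as for 19.3% of genes. It kept that call under all 27 alternatives run. In MI_soft the difference from Sham, 0.35 ± 0.28, was not called (adjusted p = 0.377), and its interval ran from 0.844-fold to 1.92-fold; limma-voom with quality weights (0.50, adjusted p = 0.00703) and the fit without the 4 libraries (0.48, adjusted p = 0.0147) did call it.

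Between the ligated groups, Plat in MI_soft lay below MI by 1.19 on the log2 scale (-1.19 ± 0.28), which the main test did not call (adjusted p = 0.0977). That comparison turned on the MI libraries. It was called by DESeq2 (adjusted p = 0.00841), by limma-voom with quality weights (0.0104) and without MI 1 (-1.43, adjusted p = 0.00111), and with MI 1 as the only MI library it was 0.052 (adjusted p = 0.988). The difference of MI_stiff from MI was -0.50 ± 0.28 (adjusted p = 0.374); it was called without MI 1 (-0.73, adjusted p = 0.0414) and was 0.62 (adjusted p = 0.144) against MI 1 alone. MI_stiff was above MI_soft in every library, as for 4.47% of genes, by 0.68 ± 0.28, without a call (adjusted p = 0.289). Endothelial markers, of which 6 of 8 had a row and none was at 0, summed to 164 to 218 TPM for Sham, 228 to 255 for MI, 160 to 168 for MI_soft and 177 to 301 for MI_stiff. The sum covers markers that went opposite ways in MI: Vwf was called higher there and Cdh5, the vascular cadherin, named after its values were seen, was called lower in MI (-1.43 ± 0.40, adjusted p = 0.0110) and in MI_soft (-1.44 ± 0.40, adjusted p = 0.0140). The part of these cells in the Plat differences was not tested. Per 1000 TPM of those markers, a ratio also chosen after its parts were seen, the median of Plat was 162 TPM for Sham, 333 for MI, 272 for MI_soft and 321 for MI_stiff. The ranges in that order were 123 to 167, 228 to 496, 133 to 374 and 237 to 352, so MI_soft overlapped each other group.

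Plaur, the uPA receptor, had few counts. Its counts were 0, 0, 0 and 1 for Sham, 2, 0, 0 and 5 for MI, 0, 0, 2 and 2 for MI_soft, and 0, 3, 3 and 5 for MI_stiff, 23 counts in 8 of the 16 libraries. At these totals 3 counts, the most that a count of 0 allows, is 0.184 to 0.284 CPM, and a difference between groups was not detectable from so few counts. The deposited TPM of Plaur cannot be set beside those of the other members. A single Plaur count is worth 1.68 to 2.58 TPM, while 1 count of Plau is worth 0.0338 to 0.0532 TPM, so the length behind the Plaur values is far below that of Plau. Only 0.218% of the 14250 genes for which a length could be worked out this way had a shorter one. So short a length draws few reads, so the low counts cannot show that the receptor's transcript was scarce. Which part of the Plaur transcripts those counts cover was not tested.

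Serpine2, the inhibitor, was higher in all 3 ligated groups. Its level was 39.6, 86.2, 63.4 and 53.3 CPM for Sham, 147, 292, 151 and 428 for MI, 326, 253, 341 and 125 for MI_soft, and 204, 162, 133 and 147 for MI_stiff. Every ligated library lay above every Sham library, and the 3 ligated groups overlapped each other. Such a separation from Sham was found for 17.7% of genes in MI, 20.9% in MI_soft and 19.3% in MI_stiff. Means were 60.6 ± 19.6 CPM for Sham, 255 ± 134 for MI, 261 ± 98.5 for MI_soft and 162 ± 30.8 for MI_stiff (SD, n = 4 each). It rose over Sham by 2.07 ± 0.37 in MI (4.20-fold, adjusted p = 0.000368), by 2.11 ± 0.37 in MI_soft (4.31-fold, adjusted p = 0.000462) and by 1.41 ± 0.36 in MI_stiff (2.67-fold, adjusted p = 0.00938). Without the 4 libraries with fewest genes the rise in MI, then MI 1 alone, was 1.303 (adjusted p = 0.00432).

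Between ligated groups Serpine2 had no call in the main test. MI_soft and MI differed by 0.04 ± 0.35 (adjusted p = 0.966, interval 0.615-fold to 1.71-fold). That difference was 1.05 without the 4 libraries with fewest genes, against MI 1 alone, and so was not stable. MI_stiff lay at -0.65 ± 0.35 from MI (adjusted p = 0.358) and at -0.69 ± 0.35 from MI_soft (adjusted p = 0.384). The last was called by limma-voom with quality weights (adjusted p = 0.0378) and without the 4 libraries with fewest genes (-0.92, adjusted p = 0.0416), of which MI_soft 4 is the lowest MI_soft library for Serpine2. Fibroblast markers, all 8 with a row and none at 0, summed to 711 to 965 TPM in Sham and to 3780 to 7126 in MI, 2593 to 4668 in MI_soft and 3348 to 5918 in MI_stiff. Per 1000 TPM of those markers, again a ratio chosen after its parts were seen, the median of Serpine2 was 30.4 TPM for Sham, 22.0 for MI, 34.1 for MI_soft and 20.5 for MI_stiff, with overlapping ranges.

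Set against each other per length, Plat was above Plau in every library, and Plau was the lowest of the 3 in all 16. Mean TPM was 1.10 for Plau, 29.9 for Plat and 25.0 for Serpine2 in Sham, and 16.7, 75.6 and 82.9 in MI_stiff. The ratio of Plau to Serpine2 TPM had a median of 0.0518 (0.0147 to 0.0716) for Sham, 0.0161 (0.00828 to 0.0634) for MI, 0.0482 (0.0219 to 0.0689) for MI_soft and 0.176 (0.138 to 0.332) for MI_stiff. All 4 MI_stiff libraries thus held more Plau TPM per TPM of Serpine2 than any other library. Other inhibitors did not enter this ratio, and how many other gene pairs separate the libraries this way was not counted. The ratio of Plat to Serpine2 was lowest in MI_soft, at a median of 0.330 (0.298 to 0.533), against 1.15 (0.861 to 1.87) in Sham, 0.689 (0.528 to 1.69) in MI and 0.983 (0.668 to 1.03) in MI_stiff. Plat exceeded Plau by a median of 25.4 times in Sham (20.1 to 58.4), 50.3 in MI (10.1 to 204), 8.84 in MI_soft (4.78 to 15.1) and 5.10 in MI_stiff (2.91 to 6.27). These ratios are descriptions of transcripts, with no test, and do not measure protease activity. Across the 12 ligated libraries the log2 levels of Plau and Plat had a Pearson r of -0.389, Plau and Serpine2 -0.287, and Plat and Serpine2 0.263. These r values describe 12 libraries that fall into 3 groups.

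**Figure D3:**
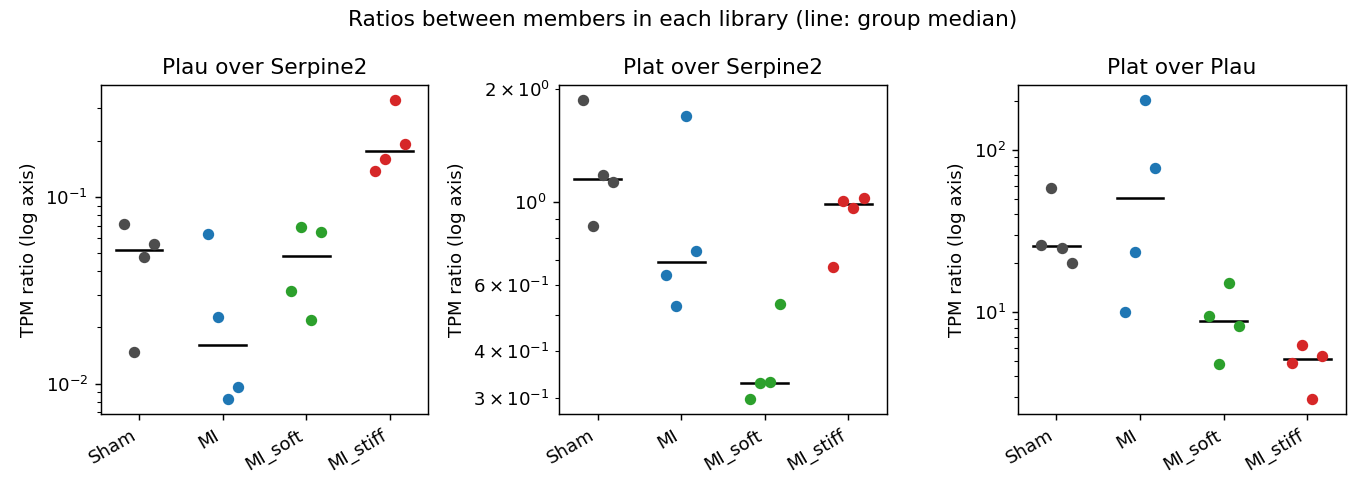
Ratios of deposited TPM between members in each library, on log axes, with the group median as a line (n = 4 a group). MI_stiff stands above the other groups for Plau over Serpine2 (0.138 to 0.332), and MI_soft holds the lowest Plat over Serpine2 (median 0.330).

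The wider plasmin system was read from 5 lists of 75 entries, the members left out; 66 entries matched a row, and 50 passed the filter on low counts. Against Sham, 26 were higher and 6 lower in MI, 22 and 3 in MI_soft, and 24 and 3 in MI_stiff, beside 20.2%, 16.4% and 12.7% of all genes called higher and 16.4%, 9.71% and 8.44% called lower. The median difference was 1.21, 0.83 and 1.12 where the median over all genes was 0.06, 0.01 and 0.02. Between ligated groups 2 were higher and 1 lower in MI_stiff against MI, where 0.492% and 0.694% of all genes were, and none was called in the other 2 comparisons by edgeR. The lists were chosen with results of these data known, so the counts describe and do not test them.

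In the list for plasminogen activation, 5 of 9 tested genes were higher and 3 lower in MI, beside 20.2% and 16.4% of all genes. In MI_soft 3 were higher and 1 lower (16.4% and 9.71% of all genes), and the same held in MI_stiff (12.7% and 8.44%). The list was drawn broadly, so being on it does not mean that a gene localises or activates plasminogen. S100a10 and Anxa2, which together form a plasminogen-binding complex at the cell surface, rose in MI over Sham by 3.57 ± 0.34 (adjusted p = 1.21e-06) and 2.60 ± 0.30 (adjusted p = 7.37e-06); with MI 1 as the only MI library the values were 2.65 and 2.00, both called. S100a10 was 22.9 ± 1.60 CPM for Sham, 272 ± 105 for MI, 183 ± 67.6 for MI_soft and 97.5 ± 31.3 for MI_stiff, and it fell in MI_stiff against MI by 1.48 on the log2 scale (SE 0.31, adjusted p = 0.0361), the direction opposite to Plau. That call was lost in 12 of the 27 alternatives, among them leaving out MI 2 (adjusted p = 0.108) or MI_stiff 3 (adjusted p = 0.111). Against MI 1 alone, without the 4 libraries with fewest genes, it was -0.54 (adjusted p = 0.388). Eno1, a glycolytic enzyme that also binds plasminogen at the surface, was 449 ± 113, 384 ± 99.1, 546 ± 175 and 465 ± 116 CPM in Sham, MI, MI_soft and MI_stiff and was called in no comparison. Plg, which encodes plasminogen itself and is made mainly in the liver, was singled out after its values were seen. It was low, at 0.443 ± 0.222, 1.68 ± 1.15, 0.488 ± 0.271 and 1.03 ± 0.140 CPM, and its call in MI against Sham (1.89 ± 0.72, adjusted p = 0.0485) was lost in 20 of 26 alternatives; with MI 1 alone it was 1.23 (adjusted p = 0.295).

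From the list of other inhibitors, Serping1 and A2m were higher in each ligated group against Sham. Serping1, the C1 inhibitor, which also blocks contact-phase proteases, went from 114 ± 12.2 CPM in Sham to 609 ± 190 in MI, 797 ± 420 in MI_soft and 427 ± 68.9 in MI_stiff, and was called in all 3. A2m, a broad protease trap, was 0.130 ± 0.121 CPM in Sham and 31.0 ± 22.5 in MI_stiff; edgeR called it higher in all 3 ligated groups and limma-voom in none, and its edgeR call in MI was lost without Sham 3 (adjusted p = 0.0518), without MI 4 (0.0758) and with MI 1 alone (4.56, adjusted p = 0.0527).

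Receptors and uptake genes had 5 of 13 higher and 3 lower in MI, beside 20.2% and 16.4% of all genes. In MI_soft 5 were higher and 1 lower (16.4% and 9.71% of all genes), and in MI_stiff 4 and 1 (12.7% and 8.44%). Lrp1, the endocytic receptor that clears activator and inhibitor complexes, was 181 ± 35.4 CPM for Sham, 444 ± 180 for MI, 526 ± 51.1 for MI_soft and 405 ± 111 for MI_stiff, called higher in all 3. Itgb2, the leukocyte integrin beta chain that partners uPAR on myeloid cells, was 7.56 ± 1.05, 16.7 ± 20.1, 60.6 ± 16.5 and 119 ± 69.4 CPM in Sham, MI, MI_soft and MI_stiff. It was higher in MI_stiff than in MI by 2.82 ± 0.62 (adjusted p = 0.0387), and that call was lost in 17 of 27 alternatives, among them without MI 2 (adjusted p = 0.115) or MI 4 (adjusted p = 0.112). Against MI 1 alone it was 1.35 (adjusted p = 0.363). The integrin beta chains Itgb1 and Itgb5 rose in MI over Sham by 0.85 ± 0.23 (adjusted p = 0.00919) and 1.04 ± 0.19 (adjusted p = 0.000451); with MI 1 as the only MI library Itgb1 was at 0.25 (adjusted p = 0.390).

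The list of substrates and targets had 7 of 14 tested genes higher in MI, 7 in MI_soft and 11 in MI_stiff, none lower. Of all genes 20.2%, 16.4% and 12.7% were higher and 16.4%, 9.71% and 8.44% lower. The list was drawn broadly and also takes in the inhibitor Timp1 and the receptors Pdgfra and Pdgfrb, so its counts are not counts of plasmin substrates. Mmp12, a macrophage elastase, was at 0 in all 4 Sham libraries and averaged 6.61 ± 8.89 CPM in MI, 117 ± 98.5 in MI_soft and 561 ± 283 in MI_stiff, an order of groups like that of Plau. It rose in MI_stiff over MI by 6.37 ± 0.94 (adjusted p = 0.00956), a call lost against MI 1 alone (4.83, adjusted p = 0.173). Mmp2, a gelatinase, and Timp1, an inhibitor of metalloproteinases, rose in all 3 ligated groups, in MI by 2.52 ± 0.24 (adjusted p = 1.24e-06) and 4.62 ± 0.42 (adjusted p = 9.08e-07), without a call between ligated groups; with MI 1 alone Timp1 was at 3.98 and was called. In the coagulation list 6 of 9 were higher in MI and none lower, beside 20.2% and 16.4% of all genes. In MI_soft 4 were higher and 1 lower (16.4% and 9.71% of all genes), and in MI_stiff 3 and 1 (12.7% and 8.44%). Vwf, the platelet-tethering protein of endothelium, was 163 ± 10.2 CPM for Sham, 386 ± 98.9 for MI, 228 ± 108 for MI_soft and 238 ± 38.5 for MI_stiff, and like Plat was called in MI (1.24 ± 0.26, adjusted p = 0.00161), but in MI_stiff it was not (0.54 ± 0.26, adjusted p = 0.151). Tfpi, the inhibitor of the tissue factor pathway, fell in MI_soft by 0.93 on the log2 scale (SE 0.22, adjusted p = 0.00543) and in MI_stiff by 0.66 (SE 0.22, adjusted p = 0.0413), the latter call lost in 12 of 27 alternatives. In MI its difference was -0.56 ± 0.22 (adjusted p = 0.0553). Gas6, a ligand of receptor tyrosine kinases on phagocytes, was higher in MI by 0.58 ± 0.20 (adjusted p = 0.0313) and in MI_soft by 0.69 ± 0.20 (adjusted p = 0.0175). The call in MI was lost in 7 of 27 alternatives, with the highest adjusted p without MI 1 (0.130), and that in MI_soft in 2, among them without Sham 4 (adjusted p = 0.0518).

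**Figure D4:**
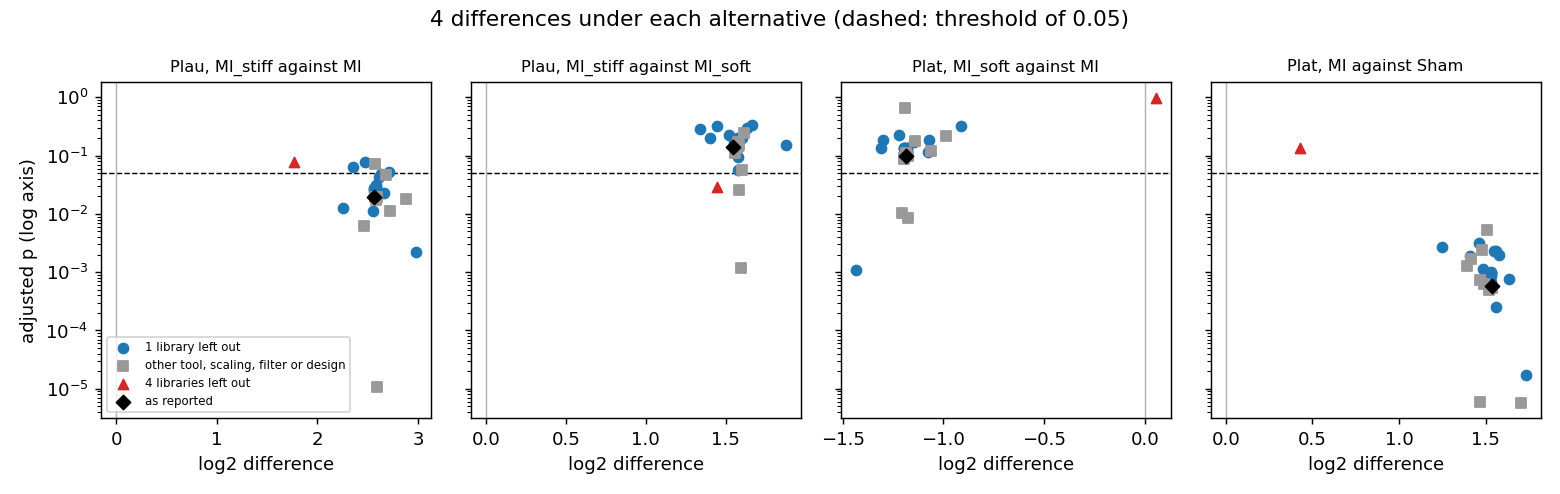
Log2 difference (horizontal axis) and adjusted p (vertical, log axis, dashed line at 0.05) of 4 member comparisons under each alternative. Plau in MI_stiff against MI keeps a difference between 1.76 and 2.98, and Plat in MI against Sham drops from 1.53 to 0.43 when the 4 libraries with fewest genes are left out.

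The genes whose log2 levels most resembled each member over the 12 ligated libraries were taken by Pearson correlation, a description over libraries that share 3 groups. Those nearest to Plau were Serpinb8 (r = 0.964), Hmox1 (0.937), Gpr162 (0.933), LOC681325 (0.910) and Ankdd1a (0.905). Hmox1, heme oxygenase 1, which breaks down heme, was the only one of these 5 above 10 CPM: it was 7.86 ± 1.44 CPM for Sham, 26.1 ± 8.81 for MI, 36.0 ± 11.4 for MI_soft and 97.5 ± 21.1 for MI_stiff. It rose in MI_stiff over MI by 1.90 ± 0.28 (adjusted p = 0.00677) and kept that call in all 27 alternatives; against MI_soft it was 1.44 ± 0.28 (adjusted p = 0.0507). Serpinb8, an intracellular serpin, averaged 0.920 CPM in MI and 4.96 in MI_stiff. The lowest MI value of Serpinb8, Gpr162, LOC681325 and Ankdd1a was 0 CPM for each, so their r values rest in part on values at the floor.

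Nearest to Plat were Tspan13 (0.963), Eml4 (0.947), Prpf18 (0.945), Meox2 (0.931) and Rbm5 (0.930), genes that were high in MI 3 and MI 4 and low in MI_soft 4. Tspan13 averaged 184 CPM in MI and 85.0 in MI_soft, and Meox2, a homeobox factor of vessels and muscle, 54.5 and 21.1. Nearest to Serpine2 were Ccn2 (0.937), a matricellular growth factor, Itgbl1 (0.882), Itga8 (0.878), an integrin alpha chain, and Hnrnpc and LOC100911576 (0.857 each). The last pair had equal counts in all 16 libraries and cannot be told apart. Ccn2 averaged 66.9 CPM for Sham, 895 for MI, 1108 for MI_soft and 500 for MI_stiff. The choice of libraries and measure mattered: with all 16 libraries 2 of the 5 genes stayed for each member, and with Spearman's rho 2 stayed for Plau, 1 for Plat and 3 for Serpine2.

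**Figure D5:**
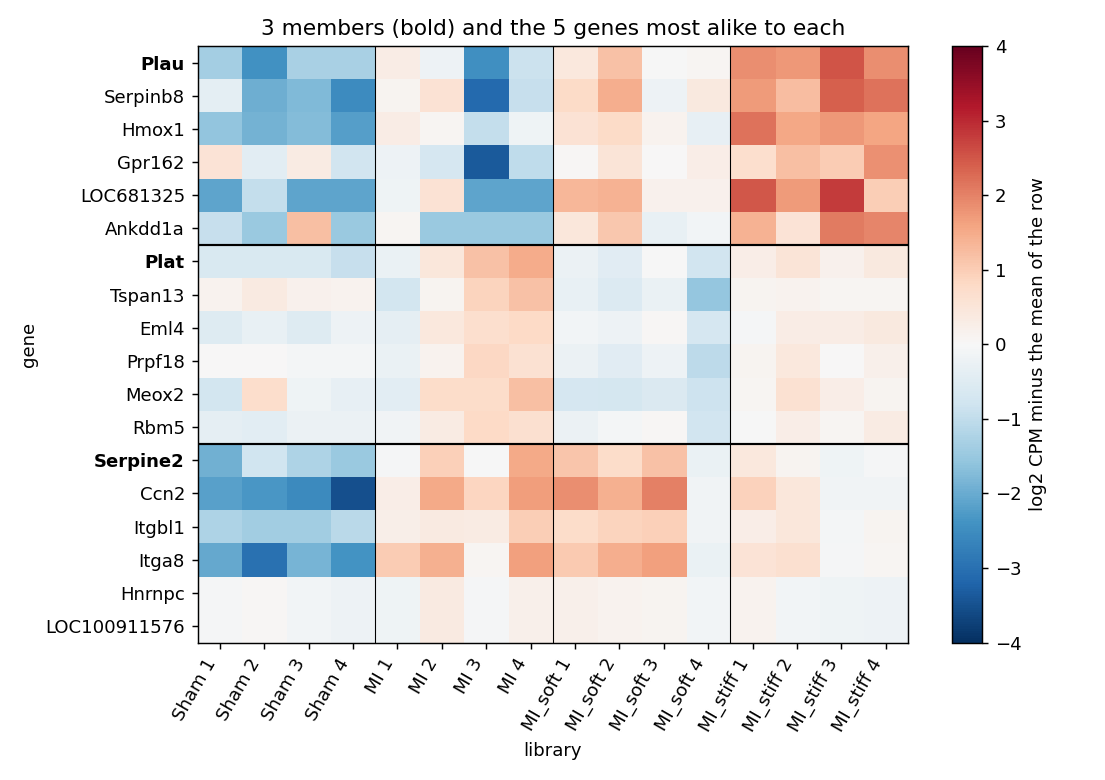
Log2 CPM of the 3 tested members (bold) and the 5 genes most like each, minus the mean of the row over the 16 libraries (colour), with libraries in columns. The Plau block is mostly warmest in the 4 MI_stiff libraries, and the Plat block in MI 3 and MI 4. The Serpine2 block is cold in Sham apart from Hnrnpc and LOC100911576, which vary little.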

How the data were processed

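The authors deposited expected counts per gene (estimated counts that need not be whole) and TPM for 16 libraries, made with STAR 2.7.3a and RSEM 1.3.1 on build rn7, per the submitters' processing notes. The annotation and the use of strand were not given in the sources used here. Without strand, antisense or overlapping genes cannot be told apart. Values that were not whole, 0.785%, were rounded. Genes with few counts were removed with edgeR's default filter, leaving 11376. edgeR 4.0.16 (R 4.3.3, TMM, robust quasi-likelihood test) fitted all 16 libraries with 1 coefficient per group; the common biological coefficient of variation was 0.403. Log2 CPM for correlations used a prior count of 2. Alternatives used DESeq2 1.42.0, limma 3.58.1 (voom, quality weights, log2 of TPM plus 1), other scaling and filters, a replicate block, each library left out, and the 4 libraries with under 12000 genes left out. The test was tried on simulated counts with known changes. Besides the members, each list's 3 genes of highest mean TPM and any gene called between ligated groups are named. A gene that this rule picks is not reported here. Members and lists were chosen with earlier results of these data known. Only ligated libraries entered the likeness measure. Promoters are RefSeq's, of GRCr8.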

Additional observations from a re-analysis of the deposited data

Results flagged for a closer look

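Of 16 member and group combinations, 4 had a library whose gap to its nearest neighbour, over the range of the group, was above Dixon's 95% critical value; chance gives about 1 in 20 groups. Sham 2 had 1.041 CPM of Plau, where the nearest Sham library had 2.332. MI_stiff 3 had 36.51 CPM of Plau, where the nearest had 23.19, and leaving it out raised the adjusted p of Plau in MI_stiff against MI to 0.0639. Sham 4 had 75.28 CPM of Plat, where the nearest had 92.89. Sham 4 also had the only Plaur count of its group, 0.07924 CPM, which is a single count; with the other 3 at 0 any count there passes the value, so this one says nothing against the chance rate.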

How the results depend on the processing

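Every tested member was refitted under 27 alternatives per comparison. The number of members called in MI_soft against MI was 0 and became 1 with DESeq2 and with limma-voom with quality weights, and 0 to 1 with a library left out. In MI_stiff against MI it was 1 and became 0 with only the 2 groups in the fit and without the 4 libraries with fewest genes, and 0 to 2 with a library left out. In MI_stiff against MI_soft it was 0 and became 1 with DESeq2, 2 with quality weights and 2 without the 4 libraries. Without those 4, Plat reversed in MI_soft against MI (0.052) and MI_stiff against MI (0.62), and Serpine2 in MI_stiff against MI (0.13). Serpine2 in MI_soft against MI reversed without MI 1 (-0.17), MI 3 (-0.16), MI_soft 1 (-0.08) or MI_soft 3 (-0.11). Its range was -0.17 to 0.39 with a library left out, and it was 1.05 without the 4 libraries, against MI 1 alone. The cause was not tested. Counts of all genes called ranged over the alternatives from 3297 to 5054 in MI against Sham, 2155 to 6119 in MI_soft against Sham, 1690 to 5188 in MI_stiff against Sham, 0 to 1508 in MI_soft against MI, 11 to 1253 in MI_stiff against MI and 3 to 509 in MI_stiff against MI_soft. The labels do not say whether replicate numbers pair the libraries. Of 24 same-number pairs 5 correlated above 0.1, and 2 libraries correlated best with their own number, which cannot exclude a pairing. With the replicate number as a block, Plau in MI_stiff against MI was 2.68 (adjusted p = 0.0459), no member call changed, and 34 genes were called in that comparison against 135. Plaur had too few counts to test.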
